A study of Arabidopsis thaliana with 6 samples.

Results

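Small heat shock proteins are ATP-independent chaperones that hold unfolding proteins in a soluble state, and plants carry separate forms of them for the cytosol, the mitochondrion, the endoplasmic reticulum (ER), the chloroplast and the peroxisome. HSP70 and HSP90 refold such proteins with the help of co-chaperones, among them FKBP-type proteins and the HSP70-HSP90 organising proteins (Hop). In Arabidopsis most of these genes are nearly silent in unstressed leaves and are switched on by heat shock factors during heat, and many also respond to hydrogen peroxide. The genes described here are 9 of 13355 genes measured: the small heat shock protein genes AT1G53540, AT2G29500, AT5G51440, AT1G52560, ATHSP22.0 and AT5G37670, the co-chaperone genes AT5G48570 and Hop3, and HSA32. They were chosen by locus or symbol among probe sets that name exactly 1 gene, and all 9 were found, each with 1 probe set. The tables used here name most of them by locus only, so their compartments are given as background knowledge of the Arabidopsis proteins.

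The RNA came from rosettes of the catalase mutant cat2-2 in Col-0, hybridised to 6 Affymetrix ATH1 arrays, and the mutant is impaired in the leaf catalase that removes hydrogen peroxide formed by photorespiration. The 3 untreated replicates were taken at 0 h, 21 days after sowing. The 3 treated replicates were taken at 24 h, 22 days after sowing, after plates were resealed with parafilm, which limits gas exchange, and kept under constant light; the labels name this photorespiratory conditions. All plants carried the mutation, both groups grew on medium with sucrose in long days, and each replicate pooled many rosettes from plates that also held a second genotype. No wild type and no untreated plants of 22 days are among the samples analysed. Age, lighting and restricted gas exchange therefore cannot be told apart. No probe set could be tied to the catalase gene itself through the tables, and it was not analysed here. Levels are RMA values on the log2 scale, a difference is the treated minus the untreated mean, ± gives its standard error (SE), n = 3 arrays per group, and adjusted p is limma's value over all probe sets. The replicates are labelled biological. Nothing more is stated of how far they were grown apart, so the p-values measure the spread between these arrays.

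After 24 h of treatment, 5 of the 9 genes stood higher and none lower. The mitochondrial AT5G51440 rose 7.20-fold (log2 2.85 ± 0.13), the cytosolic AT1G53540 6.85-fold (log2 2.78 ± 0.11) and the cytosolic AT2G29500 4.84-fold (log2 2.28 ± 0.19). The co-chaperone genes AT5G48570 and Hop3 rose 3.88-fold and 3.15-fold. The ER form ATHSP22.0, the peroxisomal AT5G37670, the second mitochondrial form AT1G52560 and HSA32 did not pass the test, with log2 differences between -0.017 and 0.13. Over the whole array 19.4% of 22746 probe sets rose and 22.2% fell, and 4.33% rose at least 2-fold, as all 5 raised genes did. Every treated array lay above every untreated array for 5 of the 9 genes, against 24.0% of probe sets. The median log2 difference of the 9 genes was 1.66 and that of all 13355 genes -0.0068. These are descriptions, since the 9 genes were put together with earlier results of these data known.

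**Figure D1:**
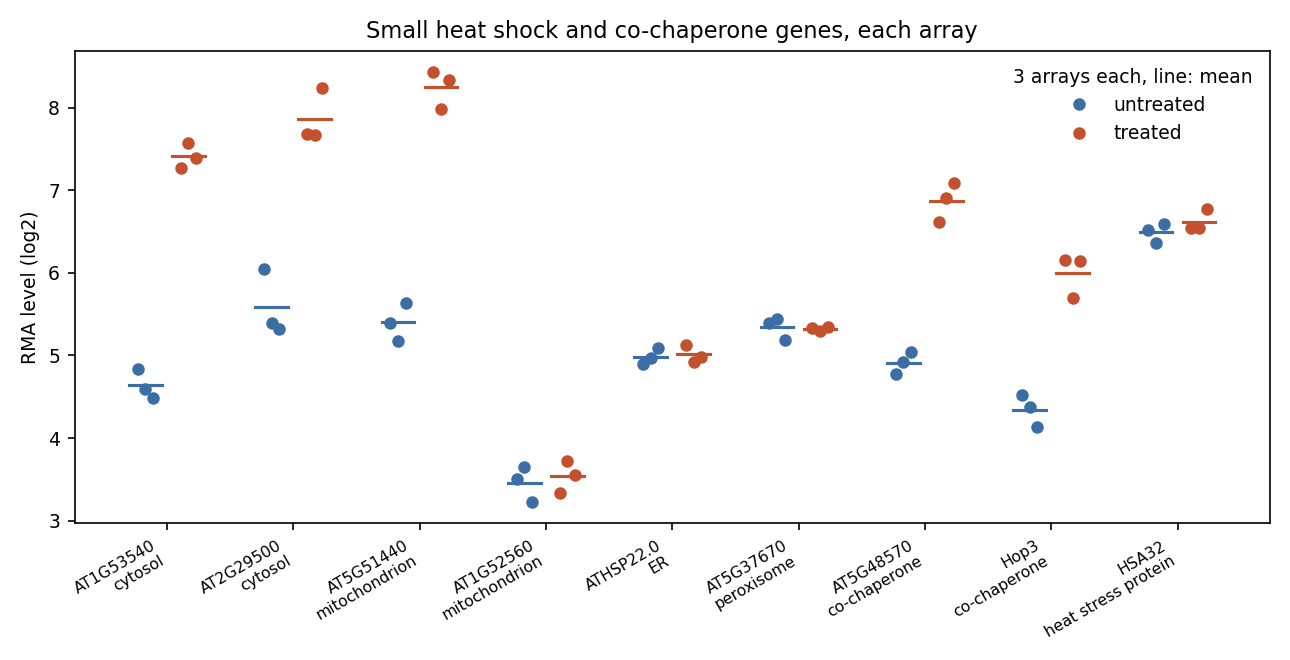
RMA level (log2, vertical axis) of the 9 genes on each array, with 3 untreated arrays in blue, 3 treated arrays in red and a line at each group mean; the label under each gene gives the compartment or type of its protein. For AT1G53540, AT2G29500, AT5G51440, AT5G48570 and Hop3 the red points all lie above the blue points, and for the other 4 genes the groups overlap.

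The cytosolic small heat shock proteins of class I form large oligomers that bind unfolding client proteins. AT1G53540, one of them, read 4.84, 4.60 and 4.48 in untreated replicates 1, 2 and 3 and 7.28, 7.58 and 7.39 in treated replicates 1, 2 and 3. The lowest treated array exceeded the highest untreated array by 2.44 log2 units, more than the range of 0.36 within the untreated and 0.30 within the treated group. The difference of 2.78 had a 95% confidence interval of 2.54 to 3.02 (adjusted p = 1.08e-08), and 32 of the 13355 genes had a larger increase. In brightness, its probe set moved from the 28.7th percentile of all probe sets in untreated to the 66.4th in treated rosettes. Whether so dim an untreated level was above background was not tested, so the fold change describes the probe set.

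AT2G29500, a class I form as well, had untreated levels of 6.05, 5.40 and 5.32 and treated levels of 7.69, 7.67 and 8.24. It was the most variable of the 9 genes in both groups, with an SD of 0.40 untreated and 0.32 treated, since untreated replicate 1 and treated replicate 3 each stood above their group. The groups were still 1.62 apart at their nearest arrays, and the difference of 2.28 had an interval of 1.85 to 2.70 (adjusted p = 2.56e-06). Between both cytosolic genes the changes differed by 0.50 log2 units, AT1G53540 having the larger, a pair compared after its values were seen and given without a test. The array-wise difference of their levels overlapped between the groups, at -1.21 to -0.80 untreated and -0.85 to -0.10 treated.

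The mitochondrion has small heat shock proteins of its own, made in the cytosol and imported into the matrix. Its gene AT5G51440 read 5.40, 5.18 and 5.64 untreated and 8.43, 7.99 and 8.34 treated. This was the largest change among the 9 genes (interval 2.55 to 3.14; adjusted p = 3.47e-08), and 28 of 13355 genes, or 0.21%, had a larger increase. The groups were 2.35 apart at their nearest arrays, against ranges of 0.46 and 0.44 within them. The untreated level of AT5G51440 ranked at the 39.7th percentile, and whether it was above background was not tested.

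AT1G52560, known as a further mitochondrial form, read 3.50, 3.65 and 3.23 untreated and 3.33, 3.72 and 3.56 treated. The groups overlapped, and the difference of 0.078 ± 0.12 did not pass (interval -0.19 to 0.35; adjusted p = 0.682). Its probe set was among the dimmest on the arrays, at the 4.2nd percentile untreated and the 5.3rd treated. No detection calls were among the values, so whether it was above background was not tested. Within the mitochondrial pair the changes were 2.77 log2 units apart, a value given without a test because that pair, too, was set after its levels were seen.

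ATHSP22.0 (AT4G10250) is the small heat shock protein of the ER and is induced by heat. Its levels were 4.90, 4.97 and 5.09 in untreated and 5.13, 4.92 and 4.98 in treated rosettes. All 6 arrays lay within a narrow band, and the difference was 0.028 ± 0.087 (adjusted p = 0.843). The interval of -0.16 to 0.22 reaches at most 1.16-fold higher, a bound that holds for the deposited scaling. With the arrays anchored on the brighter poly(A) spikes the difference of ATHSP22.0 was 0.18 and did not pass (adjusted p = 0.136). Its probe set ranked at the 34.1st percentile untreated and the 35.0th treated, and whether it was above background was not tested.

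Peroxisomes, where photorespiratory hydrogen peroxide is formed, also hold a small heat shock protein, the product of AT5G37670. It read 5.40, 5.44 and 5.19 untreated and 5.34, 5.30 and 5.34 treated, so the treated arrays fell inside the untreated range. Its probe set ranked at the 38.9th percentile untreated and the 39.4th treated, and whether it was above background was not tested. The difference of -0.017 ± 0.085 did not pass (interval -0.20 to 0.17; adjusted p = 0.910), and its sign depended on the scaling, turning to 0.14 with the arrays anchored on the brighter poly(A) spikes.

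**Figure D2:**
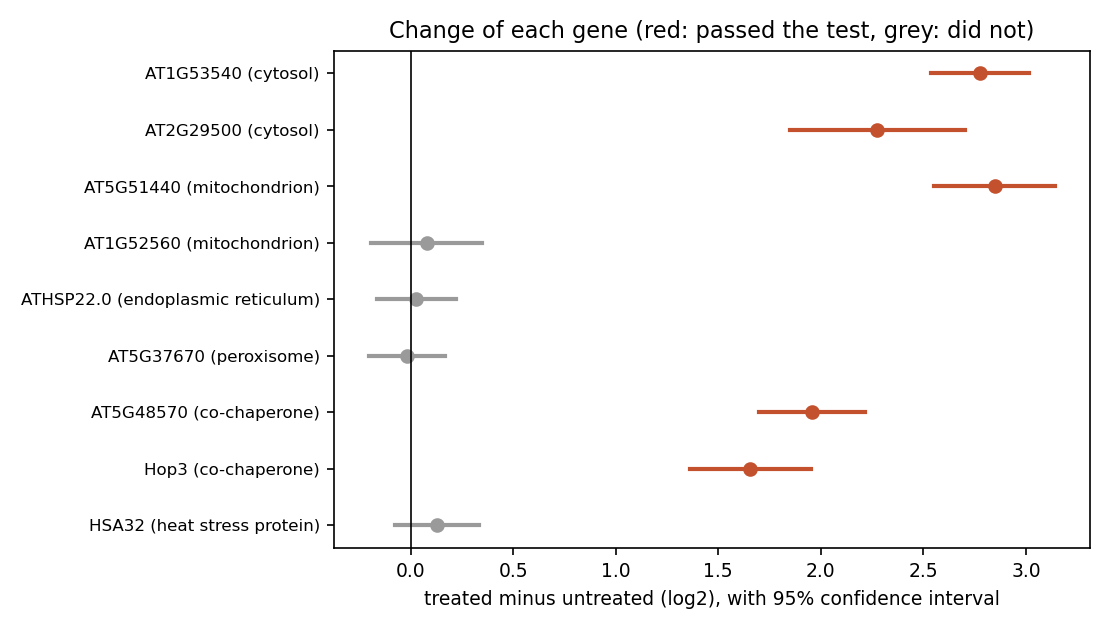
Treated minus untreated difference (log2, horizontal axis) of each gene with its 95% confidence interval from limma, n = 3 arrays per group; red marks genes that passed the test and grey those that did not. The 5 red intervals start at 1.36 or higher, and the 4 grey intervals all include 0 and end at or below 0.35.

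To compare the compartments, the changes of cytosolic, mitochondrial and ER forms were set against each other in 8 pairs of single genes, with exact two-sided permutation tests over the arrays, in which 3 against 3 cannot give a p below 0.10. The change of AT5G51440 exceeded that of the ER form ATHSP22.0 by 2.82 ± 0.14 log2 units (interval 2.43 to 3.21; exact p = 0.10, adjusted over the 8 pairs 0.16). The cytosolic genes exceeded ATHSP22.0 by 2.75 ± 0.22 (AT1G53540) and 2.25 ± 0.35 (AT2G29500), each at exact p = 0.10 with no overlap of the groups. Against the other mitochondrial form, AT1G52560, they were ahead by 2.70 ± 0.12 and 2.20 ± 0.31, again at the smallest exact p the design allows. Neither ATHSP22.0 nor AT1G52560 was shown to be above background. The 5 values therefore describe their probe sets and do not show that these transcripts changed less. None of these 5 differences can pass the permutation test at 0.05 with so few arrays, although in all 5 the groups were separated. Each of the 5 pairs set a raised gene against one that did not pass, so this separation adds no support of its own.

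The remaining 3 pairs overlapped between the groups. AT1G53540 minus AT5G51440, which both rose, was -0.071 ± 0.30 (interval -0.90 to 0.75; exact p = 1.0). AT2G29500 minus AT5G51440 was -0.57 ± 0.34 (interval -1.51 to 0.37; exact p = 0.30), and -0.34 without untreated replicate 1. AT1G52560 minus ATHSP22.0 was 0.050 ± 0.24 (interval -0.63 to 0.73, exact p = 0.80), under the same limit for AT1G52560 and ATHSP22.0. These intervals reach from -1.51 to 0.75, so like changes are not shown. All pairs share the same 6 arrays.

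Both co-chaperone genes were raised. AT5G48570, listed with the synonyms ROF2 and FKBP65, encodes an FKBP-type peptidyl-prolyl isomerase known from studies of thermotolerance. Its levels were 4.78, 4.93 and 5.04 untreated and 6.62, 6.90 and 7.09 treated, with 1.58 between the nearest arrays of the groups. The difference of 1.96 ± 0.12 (interval 1.70 to 2.22; adjusted p = 1.70e-07) lay below those of the 3 raised small heat shock genes in size. That order was not tested. The untreated level of AT5G48570 ranked at the 33.0th percentile, and whether it was above background was not tested.

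Hop3 (AT4G12400) encodes a protein that links HSP70 to HSP90 and is the heat- and ER-stress-inducible member of the Arabidopsis Hop family. It read 4.52, 4.37 and 4.13 untreated and 6.15, 5.69 and 6.15 treated. Treated replicate 2 was the lowest of its group and still 1.18 above the highest untreated array. The difference was 1.66 ± 0.13 (interval 1.36 to 1.95; adjusted p = 1.75e-06). Its untreated level ranked at the 23.2nd percentile, and whether so dim a level was above background was not tested.

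The other Hop genes, Hop1 and Hop2, are expressed without stress. Hop1 stood at log2 0.13 ± 0.11 (adjusted p = 0.419) and Hop2 at 0.13 ± 0.082 (adjusted p = 0.248), with overlapping groups for both. With the arrays anchored on the brighter poly(A) spikes Hop2 did pass, at 0.28 (adjusted p = 0.0155). Whether the change of Hop3 differs from theirs was not tested.

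HSA32 is a heat-stress-associated protein of plants that maintains thermotolerance acquired in an earlier heat stress. Its levels were 6.51, 6.37 and 6.59 untreated and 6.54, 6.54 and 6.77 treated, with overlapping groups. The difference of 0.13 ± 0.093 did not pass (interval -0.07 to 0.34; adjusted p = 0.311), but it passed with the arrays anchored on the brighter poly(A) spikes, at 0.28 (adjusted p = 0.0337). Its probe set was at the 52.9th percentile of brightness untreated and the 55.1st treated, and without treated replicate 3 the difference was 0.054.

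**Figure D3:**
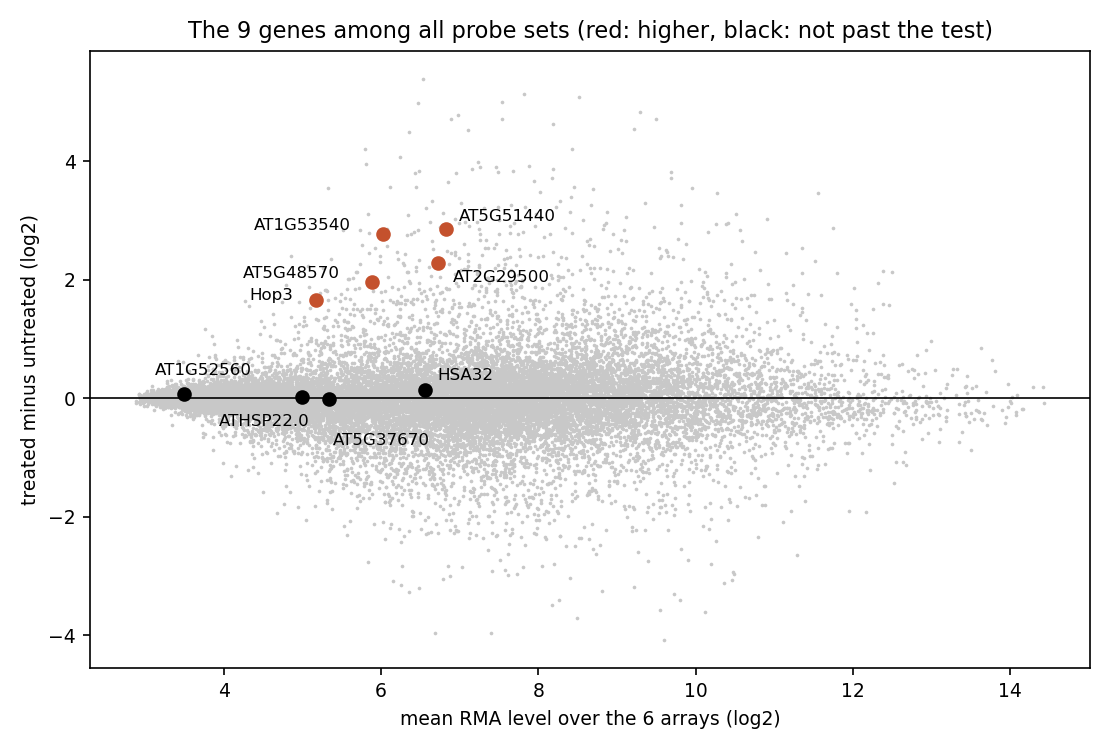
Treated minus untreated difference (log2, vertical axis) against the mean RMA level over the 6 arrays (log2, horizontal axis) for all 22746 probe sets in grey, with the 9 genes marked red where they rose and black where they did not pass. The 5 red genes lie between 1.66 and 2.85, and AT1G52560 lies at the dim end of the arrays.

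The raised genes did not share 1 extreme array. Treated replicate 2 was the lowest of its group for 3 of the 5 raised genes and the highest for 1, and treated replicate 3 the lowest for 0 and the highest for 2. Leaving out any single array kept all 5 calls and made none of the other 4 genes pass. By likeness, measured as the Euclidean distance between log2 profiles over the 6 arrays after each gene's mean was removed, the genes nearest to AT5G51440 were AT3G16530 (distance 0.42), AT1G19020 (0.43) and the glycosyltransferase gene UGT73B4 (0.44). AT1G53540 was 36th in that order (0.73), AT2G29500 71st (1.09), AT5G48570 91st (1.25) and Hop3 162nd (1.56). With 2 groups this measure mostly ranks genes by the size of their change.

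Beyond the 9 genes, lists of the wider chaperone system named 108 loci, chosen with earlier results known, of which 19 besides the 9 could be tied to a probe set. Of these 19, 8 rose, 5 fell and 6 did not pass, where 19.4% of all probe sets rose and 22.2% fell, so that the share that fell was near that of the whole array, with a median log2 difference of 0.13 against -0.0068 for all genes. When limma's treat asked for a log2 change beyond 0.5, AT4G21870, Fes1A, AT3G09440, BZIP60 and ATERDJ3B kept their calls and the other 8 lost them, while the 5 raised genes among the 9 kept theirs. No heat shock factor, HSP90, HSP100, chaperonin or chloroplast small heat shock gene could be tied to a probe set through the tables, and these were not analysed here.

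Of 4 further small heat shock genes of the cytosol and nucleus, 2 rose, 1 fell and 1 did not pass. AT4G21870 read 7.48, 6.96 and 7.48 untreated and 10.33, 10.59 and 10.40 treated. That is an 8.78-fold increase (log2 3.13 ± 0.14; adjusted p = 1.98e-08), larger than that of any of the 9 genes, and 15 of 13355 genes had a larger one. AT2G19310 rose 1.39-fold (log2 0.48 ± 0.076). AT1G54050 fell by 0.64 on the log2 scale (SE 0.10; adjusted p = 3.69e-04), from 7.38, 7.26 and 7.17 to 6.42, 6.67 and 6.80. AT5G54660 stood at 0.0038 ± 0.087 and did not pass.

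Of 7 further co-chaperone genes, 2 rose, 1 fell and 4 did not pass. Fes1A, which binds cytosolic HSP70 and keeps it from degradation in heat, read 6.71, 6.52 and 6.80 untreated and 9.11, 8.87 and 9.32 treated, a 5.35-fold increase (log2 2.42 ± 0.12; adjusted p = 3.73e-08). SGT1A, a partner of HSP90 known from plant immunity, rose 1.53-fold. ATERDJ3B, a J-domain co-chaperone of the ER, fell by 0.79 on the log2 scale (SE 0.10; adjusted p = 4.07e-05). The cyclophilin gene SQN stood at 0.20 (adjusted p = 0.172) and AT4G02450, a p23-type partner of HSP90, at 0.050 (adjusted p = 0.678). SQN passed with the arrays anchored on the brighter poly(A) spikes (log2 0.35) and without untreated replicate 2 (log2 0.29).

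HSP70 proteins are the ATP-driven chaperones that take over clients from small heat shock proteins. Of 4 measured genes of the HSP70 and HSP110 families, 2 rose and 1 fell. AT3G09440, a cytosolic HSP70 gene, rose 2.14-fold (log2 1.10 ± 0.10), from 9.42, 9.50 and 9.74 to 10.61, 10.57 and 10.79. Hsp70-2 rose 1.63-fold (log2 0.70 ± 0.11). AT4G16660, an HSP110-type gene of the ER, fell by 0.40 on the log2 scale (adjusted p = 0.00702), a call lost with the arrays anchored on the brighter spikes or the hybridization controls and without moderation. The HSP110-type gene AT1G11660 stood at -0.22 (adjusted p = 0.0711), and it passed without untreated replicate 1 (log2 -0.30) or without treated replicate 3 (log2 -0.29).

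Of 5 measured genes of protein folding in the ER, the compartment of ATHSP22.0, 2 rose and 3 fell. The risers were transcription factors of the unfolded protein response, BZIP60 at 1.89-fold (log2 0.92 ± 0.085; adjusted p = 4.85e-06) and BZIP28 at 1.46-fold. BZIP60 read 8.23, 8.31 and 8.48 untreated and 9.31, 9.23 and 9.24 treated. The genes that fell encode folding proteins: ATERDJ3B, the calreticulin gene CRT1b (by 0.74 on the log2 scale) and the calnexin gene AT5G07340 (by 0.61 on the log2 scale). CRT1b had a mean level of 9.69 (SD 0.18) untreated and 8.95 (SD 0.054) treated, with no overlap of the groups. The median of the 5 was -0.61. These lists of 4, 7, 4 and 5 genes are short, and their counts stand against the array-wide 19.4% higher and 22.2% lower.

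The balance of calls over the array depended on scaling. As deposited, 46.6% of 9479 changed probe sets were higher, against 69.0% with the arrays anchored on the 13 brighter poly(A) spikes and 60.1% on the hybridization controls, which raised every difference by 0.15 and 0.11. All 5 raised genes kept their call in these settings. The rosette label was checked on 6 leaf marker genes, each at the 99.0th percentile of brightness or above in both groups. The log2 of their summed linear levels was 16.19 to 16.22 untreated and 15.99 to 16.06 treated, with 3 of 6 lower. Of 3 root markers 1 fell (log2 of the sum 9.89 to 10.14 untreated, 9.04 to 9.33 treated), of 3 guard cell lineage markers 1 fell (6.92 to 7.07 and 6.95 to 6.99), and the flower and seed markers were not analysed here. The root marker that fell was PYK10, which made up most of the root sum. PYK10 was bright in these rosettes, at the 92.9th percentile untreated and the 86.2nd treated. The 3' minus 5' level of 6 control probe set pairs, for actin, GAPDH and ubiquitin, differed by -0.31 to 0.13 between the groups. The pairs named Athal were all lower in treated arrays (-0.313 to -0.074). The r2-At pairs for the same transcripts were all higher (0.099 to 0.134). Only for the Athal ubiquitin pair did the groups overlap. The part of these shifts in the results was not tested, and in RNA of whole rosettes fewer cells of a type and less RNA per cell cannot be told apart.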

How the data were processed

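The authors deposited log2 expression levels per probe set, for which the submitters' processing notes name RMA. No source used here gives its version or which arrays were normalized together. Of 22810 probe sets, 64 control sets were kept apart and 22746 tested with no filter. Names came from the platform table, updated through RefSeq's TAIR10.1 table, used for names only: 13513 probe sets named 1 gene, 503 several and 8730 were not listed. The highest-mean probe set represented a gene. Titles gave the groups, and 0 columns belonged to other samples.

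All 6 arrays entered lmFit and eBayes of limma 3.58.1 (R 4.3.3) without covariates. Two-sided p-values were adjusted by Benjamini-Hochberg across every tested probe set, with a threshold of 0.05. Pairs of genes were compared by exact permutation, with SE and intervals from a pooled-variance t formula. The steps were tested on simulated data. The members and lists were chosen with earlier results of these data known. Named were the 9 members, the list genes with the largest increase and decrease past the threshold (or the largest difference where none passed), and the 3 genes nearest in profile to the member that changed most. Other list genes were named after their values were seen. The 20 alternatives changed the replicate block, the dim filter, the scaling, the moderation or weights, the probe sets used, the threshold, or left out 1 array each. Python 3.11.15, pandas 2.3.3, scipy 1.17.1 and matplotlib 3.10.9 were also used. Sequences were not used here. The number of arrays limits the precision.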

Additional observations from a re-analysis of the deposited data

How the results depend on the processing

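In the 20 alternatives the raised genes, wherever tested, kept their direction and call, at log2 2.69 to 2.93 for AT1G53540, 2.09 to 2.51 for AT2G29500, 2.73 to 3.00 for AT5G51440, 1.85 to 2.11 for AT5G48570 and 1.55 to 1.81 for Hop3. Alternatives in the choice of probe set could not move the estimates of the raised genes, each with 1 probe set. A stricter threshold also left the estimates as they were. Without the dimmest 40% of probe sets Hop3, AT1G52560, ATHSP22.0 and AT5G37670 were not tested. With limma's treat, which asks here for a log2 change beyond 0.5, 2699 probe sets and 5 of the 19 further chaperone genes were called, against 9479 and 13. Genes near 0 changed sign without passing. Anchoring raised every gene's difference alike, by 0.1521 on the brighter spikes, 0.069 on all spikes and 0.1051 on the hybridization controls. Equal medians also shifted every gene alike. Why signs changed in the other settings was not tested. AT5G37670 turned to 0.010 with equal medians, 0.0363 with repeated quantile normalization, and 0.1352, 0.0521 and 0.0882 when anchored on brighter spikes, all 24 spikes or hybridization controls. With single arrays left out, AT5G37670 ranged from -0.0925 to 0.0305, AT1G52560 from -0.0375 to 0.1821, ATHSP22.0 from -0.0315 to 0.0808 and AT5G54660 from -0.0691 to 0.0699. AT4G02450 turned to -0.0060 with repeated quantile normalization. Over the same omissions HSA32 ranged from 0.0541 (without treated replicate 3) to 0.1799, and of the pairs, AT1G53540 minus AT5G51440 ranged from -0.2851 to 0.0873, AT1G52560 minus ATHSP22.0 from -0.1183 to 0.2136 and AT2G29500 minus AT5G51440 from -0.8219 (without untreated replicate 3) to -0.3357 (without untreated replicate 1). With the replicate block 9190 probe sets and 5 of the 9 genes were called. Same-numbered replicates did not deviate together (r = 0.07, -0.064 and 0.001 for numbers 1, 2 and 3), so the numbers were not taken as pairs.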
